A study of Mus musculus with 13 samples.

Results

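The values of 10 heat shock genes were followed through 2 microarray tables of eosinophils sorted from the lamina propria of the mouse small intestine. The genes are Hspa1a, Hspa1b, Hspa5, Hspa8, Hspd1, Hspe1, Hsph1, Hsp90aa1, Hsp90ab1 and Dnajb1, found by their symbol in the probe set descriptions. Where a gene had several probe sets, the one with the highest mean over the arrays of its table was used. Of these 10 genes, 9 were named among the 21369 genes of the reporter table (16 probe sets) and all 10 among the 24903 genes of the single-array table (13 probe sets). Hspa1b had a probe set of its own in the single-array table alone. All values are log2 intensities, so a difference of 1 is a 2-fold change.

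The reporter table held 5 arrays of mCherry+ and 5 of mCherry- eosinophils. Both came from Clec4a4-KI mCherry mice, which carry the red fluorescent protein mCherry as a marker of Clec4a4, a lectin-like inhibitory receptor found on myeloid cells. The single-array table held 1 array each of Clec4a4+ eosinophils of wild-type (WT) mice, of Clec4a4- eosinophils labelled Ahr KO, and of Clec4a4- eosinophils of WT mice. The product of Ahr is AHR, the aryl hydrocarbon receptor, a ligand-activated transcription factor, and the labels do not say in which cells it was deleted. Age, sex, number of mice per sample and the conditions of digestion and sorting are not given in the sources used here, and no array was made without sorting. The labels describe the reporter samples as biological replicates without naming the mice, so the p-values cover only the spread between samples, which may in part be technical. No label states a pairing either. Arrays of the same replicate number are called a pair here because their values deviated alike, which is drawn from these same data.

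Heat shock proteins are chaperones that bind unfolded or aggregating proteins and help them refold. Most cells make a constant set of them, and heat shock factor 1 (HSF1) adds an inducible set within minutes of heat, oxidative stress or handling, by binding heat shock elements in the promoters. Enzymatic digestion of a tissue and cell sorting are known to raise the inducible set together with immediate early genes, so their transcripts are commonly read as marks of handling. In the cytosol, HSP90 dimers also hold ligand-free AHR in a form that can bind its ligand.

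Depth is not defined for arrays, and their number limits the precision: 5 against 5 in the reporter table and 1 against 1 in the other. Clec4a4 stood higher in mCherry+ than in mCherry- samples in 5 of 5 pairs (9.18 ± 0.62 against 7.52 ± 0.62, SD, n = 5 each, limma adjusted p = 0.0803, and 0.00204 with the replicate number as a block), and at 9.14 in the WT Clec4a4+ array, against 5.56 in the WT Clec4a4- array. The Ahr probe set read 11.12 in the array labelled Ahr KO, against 11.08 in the WT Clec4a4- array, and where its probes lie relative to the deleted part is not given, so it checks nothing. Tiparp, an AHR target, read 8.01 in the array labelled Ahr KO, against 11.57 in the WT Clec4a4- array. Of the eosinophil markers, Siglecf and Ccr3 were above the median of all gene values on all 13 arrays, but Epx, the eosinophil peroxidase, read 4.31 to 4.89 on the reporter arrays, under their median of 5.36. For 16 epithelial markers the mean was 8.39 and 8.16 in the mCherry+ and mCherry- arrays numbered 1, and 9.98 to 10.93 in the remaining 8 reporter arrays.

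The promoters of several of the genes carry the letters of a heat shock element, and 4 of them are shown: the near-identical HSP70 pair, the promoter shared by the mitochondrial pair, and Hspa5, which carries another element. Windows of 250 bases before to 50 bases after the transcription start, from RefSeq (GRCm38.p6), were found for 7 of the 10 genes, while Hspa8, Hsp90aa1 and Hsp90ab1 had no entry. Capitals mark GAANNTTC or TTCNNGAA, the head-to-head and tail-to-tail pairs of the element, which may overlap and read the same on both strands, and in Hspa5 the endoplasmic reticulum stress element, CCAAT and CCACG with 9 bases between them.
Hspa1a (chr17:34972107-34972406, minus strand): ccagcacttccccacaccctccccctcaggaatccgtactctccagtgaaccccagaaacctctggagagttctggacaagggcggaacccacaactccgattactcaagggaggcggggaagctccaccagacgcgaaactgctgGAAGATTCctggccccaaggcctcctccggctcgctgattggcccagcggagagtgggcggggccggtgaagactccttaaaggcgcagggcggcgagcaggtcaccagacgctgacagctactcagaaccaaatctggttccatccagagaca
Hspa1b (chr17:34959189-34959488, minus strand): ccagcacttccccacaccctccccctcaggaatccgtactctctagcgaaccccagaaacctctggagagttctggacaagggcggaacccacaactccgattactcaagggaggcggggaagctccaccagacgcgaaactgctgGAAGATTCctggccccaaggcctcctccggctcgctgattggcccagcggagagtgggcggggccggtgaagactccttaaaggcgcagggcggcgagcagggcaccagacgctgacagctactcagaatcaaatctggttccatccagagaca
Hspe1 (chr1:55087898-55088197, plus strand): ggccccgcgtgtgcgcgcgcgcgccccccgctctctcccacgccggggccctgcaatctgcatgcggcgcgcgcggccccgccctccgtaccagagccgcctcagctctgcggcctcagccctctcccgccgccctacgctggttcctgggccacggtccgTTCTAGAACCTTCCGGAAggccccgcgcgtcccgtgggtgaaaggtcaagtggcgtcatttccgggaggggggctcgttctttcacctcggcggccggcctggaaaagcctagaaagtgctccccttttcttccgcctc
Hspa5 (chr2:34771840-34772139, plus strand): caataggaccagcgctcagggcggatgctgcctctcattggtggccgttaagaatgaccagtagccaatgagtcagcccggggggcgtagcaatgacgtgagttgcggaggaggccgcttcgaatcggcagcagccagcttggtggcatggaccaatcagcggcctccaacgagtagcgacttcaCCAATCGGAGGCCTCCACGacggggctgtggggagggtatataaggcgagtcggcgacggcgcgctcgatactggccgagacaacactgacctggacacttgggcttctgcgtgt

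The Hspa1a and Hspa1b windows were identical at 296 of 300 aligned bases and both held GAAGATTC, starting 104 bases before the start site. Hspd1 and Hspe1 lie head to head on chromosome 1, and 1 of the Hspd1 windows shares 285 bases with that of Hspe1, with the run of 3 overlapping pairs that is shown in capitals. Hsph1 held TTCTCGAA before its start and TTCTGGAAAGTTC after it, and neither Dnajb1 window held a pair. Of the 10 windows of these genes 6 held either pair, against 15.1% of all 32851 windows. A triple, GAANNTTC followed by NNGAA, searched on both strands and overlapping the pairs it holds, was found in 4 of the 10 and in 0.603% of all windows. The stress element of Hspa5, searched on both strands, was found in 0.119% of all windows. A match describes the letters only, and overlapping windows of a gene are not independent. The same holds between genes, for Hspa1a and Hspa1b and for Hspd1 and Hspe1. The counts of windows with a match are thus larger than the number of separate elements.

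In the reporter comparison, no heat shock gene was called between mCherry+ and mCherry- eosinophils, although the intervals of Hspa1a, Dnajb1 and Hsph1 were wide. With or without the replicate number as a block, limma called none of the 9 (adjusted p under 0.05 over all genes), against 0.356% of the 21369 genes without the block and 1.76% with it. By sign 8 were lower and 1, Hspa8, higher in mCherry+ samples, and 52.5% of all genes were lower. The median difference over the 9 genes was -0.10, against -0.01 over all genes. At an unadjusted p under 0.05 limma gave 0 of the 9 without the block, against 7.34% of all genes. With the block it gave 3, against 11.9% of all genes in either direction. All 3 were lower, and 5.6% of all genes were lower at this threshold. The plot of the 5 pairs shows that the groups overlapped for all 9 genes, while the groups of 1.9% of all genes did not overlap.

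**Figure D1:**
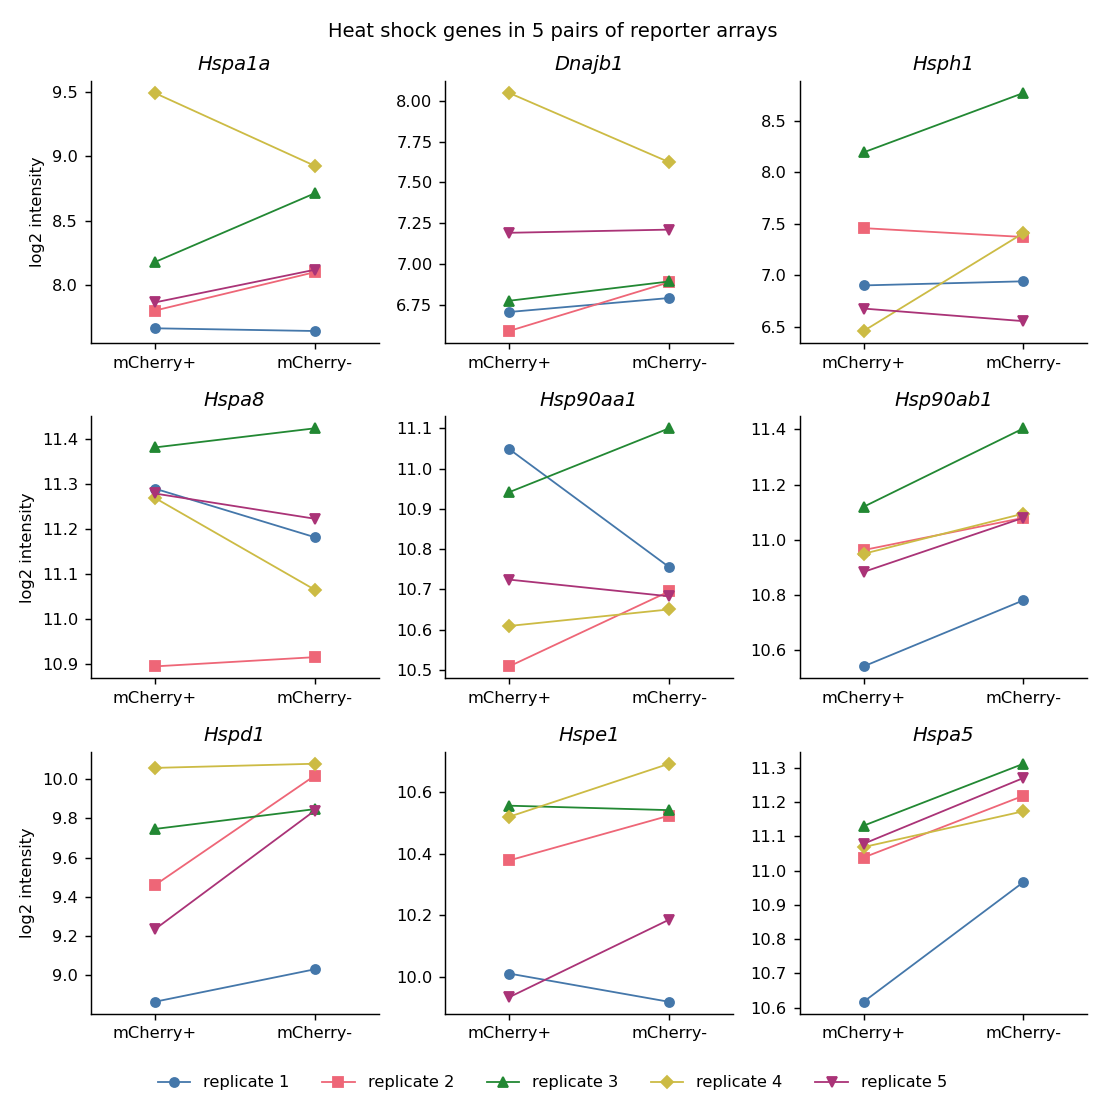
Log2 intensity of 9 heat shock genes (one panel each, with its own vertical axis) on the mCherry+ arrays (left) and mCherry- arrays (right), with a line joining the arrays of a replicate number. The lines of Hsp90ab1, Hspd1 and Hspa5 run lower in mCherry+ in all 5 pairs, and the lines keep much of their vertical order in the other genes as well.

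Hspa1a encodes the stress-induced HSP70 of the cytosol. It read 7.67, 7.80, 8.18, 9.49 and 7.87 in mCherry+ arrays 1 to 5, against 7.65, 8.10, 8.71, 8.93 and 8.12 in mCherry- arrays 1 to 5. Array 4 was the highest and array 1 the lowest in both groups, and the groups overlapped. The difference was -0.10 (SE 0.36, limma adjusted p = 0.993), with a 95% interval of 0.54- to 1.61-fold without the block and 0.72- to 1.21-fold with it. It was lower in 3 of 5 pairs, and the pairs ran between -0.53 in number 3 and 0.56 in number 4.

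Dnajb1 encodes an HSP40 that delivers clients to HSP70 and starts its ATPase cycle. It read 6.70, 6.59, 6.77, 8.05 and 7.19 in mCherry+ arrays, against 6.79, 6.89, 6.89, 7.62 and 7.21 in mCherry- arrays. As with Hspa1a, array 4 was the highest in both groups. The difference was -0.02 (SE 0.28, limma adjusted p = 0.999), with a 95% interval of 0.64- to 1.51-fold, and pair 4 alone was higher in mCherry+, by 0.42.

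Hsph1 encodes HSP110, which exchanges the nucleotide of HSP70 and takes part in dissolving aggregates. It read 6.90, 7.46, 8.19, 6.46 and 6.68 in mCherry+ arrays, against 6.94, 7.37, 8.77, 7.41 and 6.55 in mCherry- arrays. Array 3, not array 4, was the highest in both groups. The difference was -0.27 (SE 0.42, limma adjusted p = 0.976) with the widest interval of the 9 genes, 0.43- to 1.58-fold without the block and 0.62- to 1.11-fold with it. Without mCherry- array 3 the difference was 0.07.

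Hspa8 encodes HSC70, the constitutive HSP70 of the cytosol. It read 11.29, 10.89, 11.38, 11.27 and 11.28 in mCherry+ arrays, against 11.18, 10.92, 11.42, 11.07 and 11.22 in mCherry- arrays. Array 2 was the lowest and array 3 the highest in both groups. The difference was 0.06 (SE 0.13, limma adjusted p = 0.984), and the 95% interval ran from 0.86- to 1.27-fold without the block and from 0.94- to 1.15-fold with it.

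The HSP90 genes differed from each other in how their pairs ran. Hsp90aa1 encodes the stress-inducible form, and Hsp90ab1 the constitutive form. Hsp90aa1 read 11.05, 10.51, 10.94, 10.61 and 10.72 in mCherry+ arrays, against 10.76, 10.70, 11.10, 10.65 and 10.68 in mCherry- arrays. Its difference was -0.01 (SE 0.14, limma adjusted p = 0.999), with 3 of 5 pairs lower, and the interval with the block was 0.87- to 1.13-fold. Hsp90ab1 read 10.54, 10.96, 11.12, 10.95 and 10.88 in mCherry+ arrays, against 10.78, 11.08, 11.40, 11.10 and 11.08 in mCherry- arrays. It was lower in mCherry+ in all 5 pairs, by 0.12 to 0.28 on the log2 scale. The difference of -0.20 (SE 0.14) had a limma adjusted p = 0.885 without the block and 0.218 with it, where the interval was 0.79- to 0.96-fold.

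Hspd1 and Hspe1 encode the chaperonin HSP60 and its lid HSP10, which fold proteins in the mitochondrial matrix. Hspd1 read 8.86, 9.46, 9.75, 10.06 and 9.23 in mCherry+ arrays, against 9.03, 10.02, 9.85, 10.08 and 9.84 in mCherry- arrays. It was lower in mCherry+ in all 5 pairs, but the difference of -0.29 (SE 0.25) had a limma adjusted p = 0.929, and 0.36 with the block. Hspe1 read 10.01, 10.38, 10.56, 10.52 and 9.93 in mCherry+ arrays, against 9.92, 10.52, 10.54, 10.69 and 10.19 in mCherry- arrays. Its difference was -0.09 (SE 0.18, limma adjusted p = 0.984), with 3 of 5 pairs lower. The second Hspe1 probe set was lower in all 5 pairs, with a difference of -0.07.

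Hspa5 encodes BiP, the HSP70 of the endoplasmic reticulum and a target of the unfolded protein response, not of HSF1. It read 10.62, 11.04, 11.13, 11.07 and 11.08 in mCherry+ arrays, against 10.97, 11.22, 11.31, 11.17 and 11.27 in mCherry- arrays. It was lower in mCherry+ in all 5 pairs, by 0.10 to 0.35 on the log2 scale, and array 1 was the lowest in both groups. The difference of -0.20 (SE 0.13) had a limma adjusted p = 0.839 without the block and 0.217 with it, where the interval was 0.79- to 0.96-fold. Hspa5, Hspd1 and Hsp90ab1 were thus 3 of 9 genes lower in all 5 pairs, as were 5.95% of all genes.

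**Figure D2:**
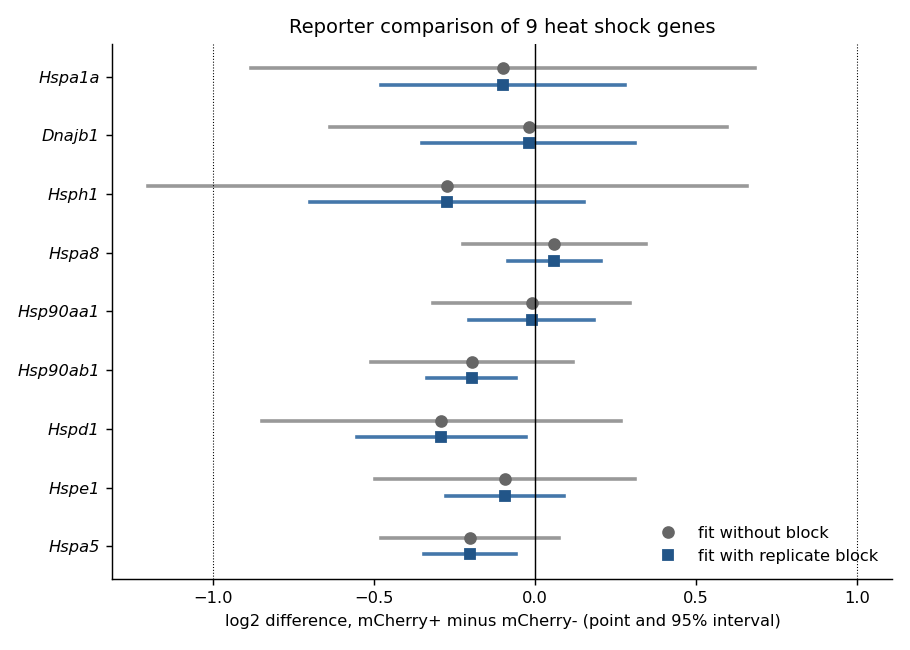
Log2 difference, mCherry+ minus mCherry-, of 9 heat shock genes with its 95% interval in the limma fit without a block (circles) and with the replicate number as a block (squares); dotted lines mark a 2-fold change. No interval of the fit with the block reaches 2-fold, and those of Hspa5, Hspd1 and Hsp90ab1 lie below 0 before adjustment over all genes. Without the block the interval of Hsph1 passes 2-fold lower (0.43-fold).

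For most of these genes the pair means spread more widely over the replicate numbers than the pair differences did. The SD of the 5 pair means exceeded the SD of the 5 pair differences in 8 of the 9 genes, all but Hsp90aa1. The ratio of these SDs had a median of 1.74 over the 9 genes (0.94 to 3.15), against 0.64 over all genes. Without replicate 1 the medians were 1.62 and 0.60. All 9 genes lay above the median of all gene values on all 10 arrays, whereas the share over all genes includes dim ones. Whether other bright genes have a similar ratio was not tested. The same number was the highest in both groups for 7 of the 9 genes, number 4 for Hspa1a, Dnajb1 and Hspd1 and number 3 for Hspa5, Hspa8, Hsph1 and Hsp90ab1. Number 1 was the lowest in both groups for Hspa1a, Hspa5, Hspd1 and Hsp90ab1, and number 2 for Hspa8. The shares of all genes behind these counts, and behind the 8 of 9, were not computed. The counts thus describe the 9 genes and do not set them apart from other genes.

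Marker levels also varied over the replicate numbers, but not in the same order as the heat shock mean. The mean of the 9 heat shock genes was 9.29, 9.45, 9.78, 9.83 and 9.43 in mCherry+ arrays 1 to 5, against 9.33, 9.65, 9.86 and 9.57 in mCherry- arrays 1, 2, 4 and 5, with mCherry- array 3 the highest of the 10. The mean of the 16 epithelial markers was 8.39, 9.98, 9.99, 10.76 and 10.26 in mCherry+ arrays, against 8.16, 10.05, 10.17, 10.93 and 10.68 in mCherry- arrays. The mean of 13 eosinophil markers was 7.51, 7.19, 7.43, 6.74 and 7.22 in mCherry+ arrays, against 7.86, 7.43, 7.53, 6.75 and 7.21 in mCherry- arrays. Replicate 1 was thus lowest in heat shock and epithelial signal, and replicate 4 highest in epithelial and lowest in eosinophil signal. In both groups replicate 5 had a higher epithelial mean than replicates 1, 2 and 3, but a lower heat shock mean than replicates 2, 3 and 4. Among mCherry- arrays the heat shock mean was highest in array 3 and the epithelial mean in array 4. Of the marker lists, the neutrophil, the erythroid and the stromal and endothelial means each kept the same direction in 5 of 5 pairs. The mean of 10 stromal and endothelial markers was 5.90 to 7.16 in mCherry+ arrays, against 5.83 to 6.97 in mCherry- arrays, and higher in mCherry+ in each pair. The mean of 12 neutrophil markers was 5.776 to 5.996 in mCherry+ arrays, against 6.52 to 7.42 in mCherry- arrays, with 2 of the 12 called lower and S100a8, a calcium-binding protein abundant in neutrophils, at -5.27. S100a9 read 4.36 to 6.96 in mCherry+ arrays, against 9.55 to 12.38 in mCherry- arrays. By sign 9 of the 12 were lower and 3 higher, with a median of -0.14, so the shift of the mean is not that of a typical marker of the list. The mean of 6 erythroid markers was 5.57 to 7.09 in mCherry+ arrays, against 5.31 to 5.96 in mCherry- arrays, higher in 5 of 5 pairs, with none called. The part of other cells in the heat shock values was not tested, and in bulk samples fewer cells of a type and less RNA per cell cannot be told apart. Without both arrays of replicate 1, the median difference of the 9 genes was -0.14 and again none passed.

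**Figure D3:**
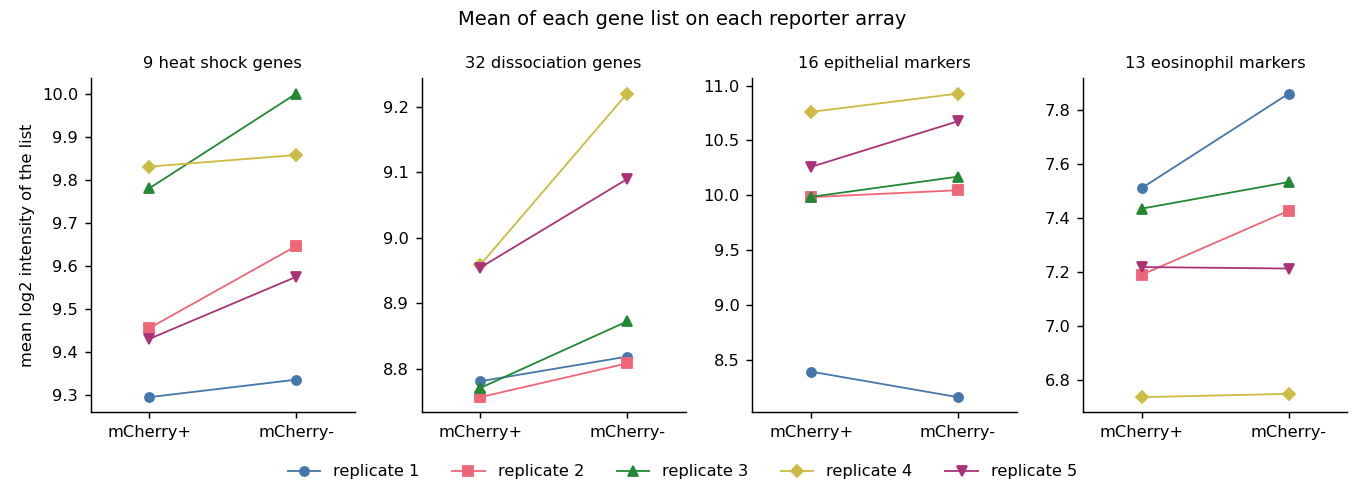
Mean log2 intensity of 9 heat shock genes, 32 genes of the dissociation response, 16 epithelial markers and 13 eosinophil markers on each mCherry+ (left) and mCherry- (right) array, with lines joining a replicate number. Replicate 1 has the lowest heat shock mean and by far the lowest epithelial mean (8.39 in mCherry+ and 8.16 in mCherry-).

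Several members were measured by more than 1 probe set, Over the 10 arrays, the probe sets of a gene correlated at r of 0.97 for Hspe1, 0.94 for Hspd1, 0.84 to 0.97 for Hspa1a, 0.81 to 0.99 for Hsp90aa1 and 0.75 to 0.96 for Hspa8, as a description. Fitted over all named probe sets, none of them passed limma's test in either fit. The third Hspa1a probe set, tied to the gene by its accession and not by its description, stood at -0.31 (limma adjusted p over all named probe sets = 0.926, or 0.408 in the blocked fit). The genes Hspa1a (chr17:34969359-34972156) and Hspa1b (chr17:34956429-34959238) are near-identical neighbours, so the Hspa1a probe sets of the reporter table may read both.

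Other chaperones and stress genes were counted from fixed lists. Of 21 HSF factors and other HSF1-induced chaperones none passed in either fit (9 higher and 12 lower by sign, median -0.01). Hspa4l, a testis-enriched HSP110 relative, stood at 0.44 (adjusted p = 0.487) and Fkbp4, an immunophilin of the HSP90 complex, at -0.18. None of 20 cochaperones of HSP70 and HSP90 passed (median 0.02), with Cdc37, which brings kinases to HSP90, at -0.54 (adjusted p = 0.437) and Tomm34 at 0.40. None of 22 endoplasmic reticulum chaperones and unfolded protein response genes passed (11 higher and 11 lower, median 0.02), with Herpud1, a gene of protein degradation at that membrane, at -0.47 and Dnajc3 at 0.30.

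Among 12 mitochondrial chaperones and proteases none passed (median -0.10), with the protease Htra2 at 0.58 and the cochaperone Hscb at -0.51 (adjusted p = 0.616, and 0.05 with the block, not under the threshold). Among 14 genes of the cytosolic chaperonin TRiC and of prefoldin, 11 were lower by sign and none passed (median -0.17). Their mean was lower in mCherry+ in each pair, at 7.70 to 7.74 against 7.76 to 7.99 in mCherry- arrays. Pfdn1, a prefoldin subunit, stood at -0.59 (adjusted p = 0.245) and Tcp1, a TRiC subunit, at -0.49.

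The 32 genes of the tissue dissociation response outside the chaperones held the widest differences of these lists (median -0.07). Their mean was lower in mCherry+ in 5 of 5 pairs, at 8.76 to 8.96 against 8.81 to 9.22 in mCherry- arrays. Without the block limma called 1 of them higher and 1 lower, against 0.356% of all genes, and with the block 2 higher and 4 lower, against 1.76% of all genes. Nfkbia, the inhibitor of NF-kB, averaged 8.64 in mCherry+ and 10.16 in mCherry- samples and was lower in 5 of 5 pairs (-1.51, SE 0.22, limma adjusted p = 0.0173, and 0.000383 with the block). With 1 array left out its difference stayed between -1.62 and -1.37. Its call without the block ended without mCherry+ array 5 (adjusted p = 0.0576), mCherry- array 3 (0.0515) or both arrays of replicate 1 (0.0553). With the block and without replicate 1 the adjusted p was 0.00347. Rhob, a small GTPase induced early in stress, averaged 7.10 in mCherry+ and 6.14 in mCherry- samples and was higher in 5 of 5 pairs (0.96, SE 0.17, limma adjusted p = 0.0402, and 0.0262 with the block). With 1 array left out its difference stayed between 0.89 and 1.07. Its call without the block held without mCherry+ array 4 or mCherry- array 4 and ended without any other of the remaining 8 arrays (adjusted p up to 0.127), and it also ended with the block and without replicate 1 (0.108).

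The other 4 genes were called with the block alone, and Egr2, Ier3 and Gadd45b are named outside the naming rule, after their values were seen. The transcription factor Myc averaged 6.62 in mCherry+ and 8.45 in mCherry- samples and was lower in 5 of 5 pairs (-1.83, limma adjusted p = 0.0618, and 0.0393 with the block). Egr2, an immediate early transcription factor, stood at 1.66 (0.0581, and 0.00416 with the block). Ier3, an immediate early gene, stood at -1.37 (0.329, and 0.00628 with the block), and Gadd45b, a stress-induced gene, at -1.13 (0.0847, and 0.0332 with the block). The rest of the list lay between -0.54 and 0.41, the immediate early genes Fos (0.15), Jun (0.06) and Egr1 (0.32) among them, all without a call.

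**Figure D4:**
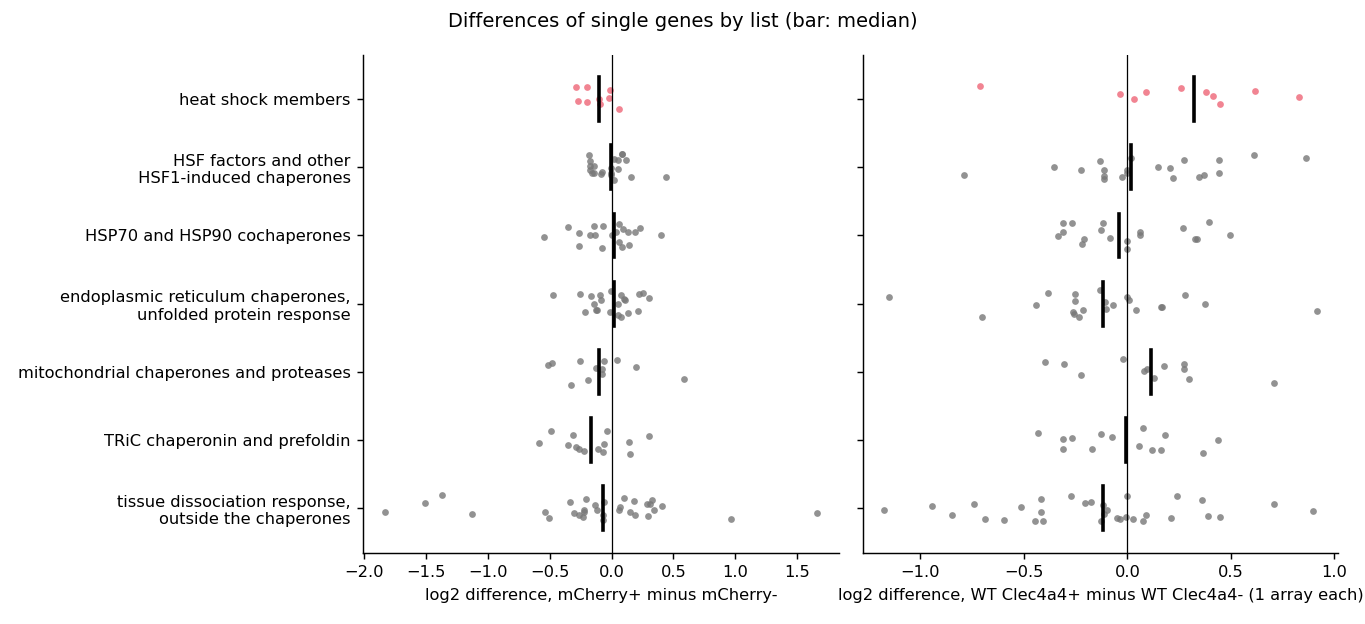
Log2 difference of each gene of 7 lists in the reporter comparison, mCherry+ minus mCherry- (left, n = 5 each), and between the single arrays, WT Clec4a4+ minus WT Clec4a4- (right, 1 array each); bars mark medians and the vertical jitter has no meaning. The heat shock genes have a median of -0.10 on the left and 0.32 on the right, and the 32 dissociation genes spread the widest on the left.

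The 3 single arrays have no replicate check, so their values are given without a test. In the WT Clec4a4+ array 8 of the 10 heat shock genes read higher than in the WT Clec4a4- array and 2 lower, with a median difference of 0.32, against 0.00 over all genes, of which 48.6% were higher. None of the 10 reached 2-fold, against 1.68% of 24903 genes that did so with the higher value at or above the median of all gene values, 4.81. At 1.5-fold there were 3 (Hspa1b, Hspa5 and Hspd1), against 5.65% of genes.

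Hspa1b, the near-identical second gene of inducible HSP70, differed most, at 11.83 in the WT Clec4a4+ array against 11.01 in the WT Clec4a4- array (1.77-fold). Hspa1a read 13.12 against 12.67 (1.36-fold), and Hsph1 9.45 against 9.04 (1.33-fold). Hspd1 read 6.99 in the WT Clec4a4+ array against 6.37 in the WT Clec4a4- array (1.53-fold), and Hspe1 8.52 against 8.15 (1.30-fold). Hsp90aa1 read 8.97 against 8.70. Hspa5 ran the other way, at 9.66 in the WT Clec4a4+ array against 10.37 in the WT Clec4a4- array (1.63-fold lower). Hspa8 (11.41 against 11.32), Dnajb1 (8.74 against 8.71) and Hsp90ab1 (9.34 against 9.37) differed by under 0.10 on the log2 scale.

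The reporter table gives a measure of how far 2 arrays of a pair can lie apart, although it is of another array model and not on the same scale. The widest pair difference there was 0.56 for Hspa1a and -0.95 for Hsph1, each larger in size than the gene's difference between the WT arrays (0.45 and 0.41). It was -0.61 for Hspd1, close to the 0.62 between the WT arrays in size and opposite in sign. It was -0.25 for Hspe1 and -0.35 for Hspa5, smaller in size than the 0.38 and -0.71 between the WT arrays. No label pairs the WT arrays, however, and arrays of different numbers lay further apart. Hspe1 ranged over 0.62 within mCherry+ and 0.77 within mCherry- arrays, more than the 0.38. Hspa5 ranged over 0.51 and 0.35 within the groups, and from 10.62 to 11.31 over all reporter arrays. The sign of the Hspa5 difference was the same in both tables, with no call in the reporter table. Hspd1 was lower in 5 of 5 pairs of the reporter table and higher in the WT Clec4a4+ array, and whether the tables differ was not tested.

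**Figure D5:**
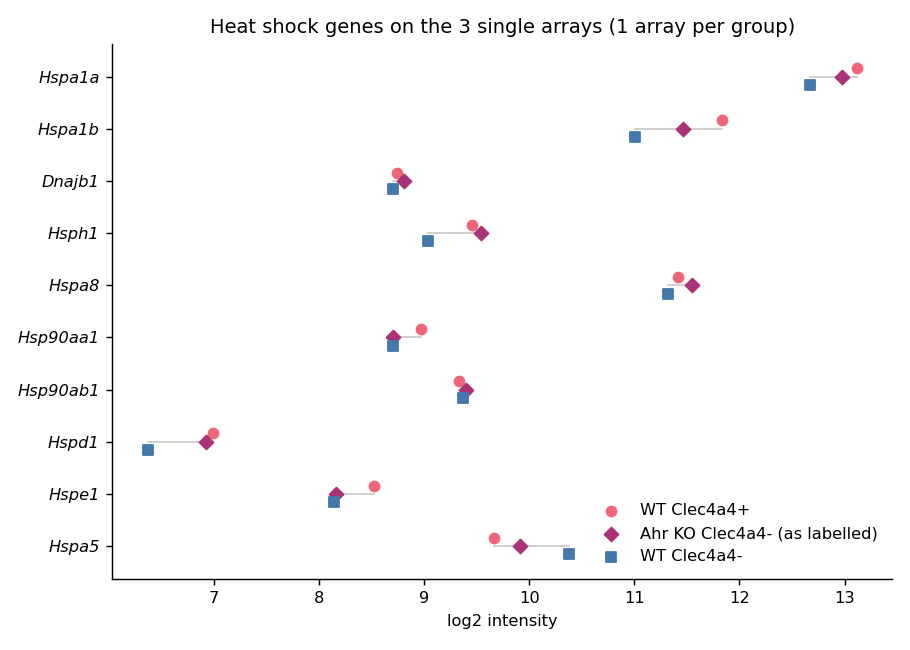
Log2 intensity of 10 heat shock genes on the WT Clec4a4+ array (circles), the array labelled Ahr KO Clec4a4- (diamonds) and the WT Clec4a4- array (squares), with a line over the range of each gene; levels of different genes are not on a common scale. Hspa1b, Hspa5, Hspd1 and Hsph1 spread the widest, and the symbols of Hsp90ab1 and Dnajb1 nearly coincide.

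The array labelled Ahr KO was set against the same WT Clec4a4- array, so this comparison shares an array with the one above. None of the 10 heat shock genes reached 2-fold (1.37% of genes did) or 1.5-fold (5.18%), 8 were higher by sign, 1 lower and 1 equal, and the median was 0.16. Hspd1 read 6.93 in the array labelled Ahr KO against 6.37 in the WT Clec4a4- array, Hsph1 9.54 against 9.04, Hspa1b 11.46 against 11.01 and Hspa1a 12.97 against 12.67. Hspa5 read 9.91 in the array labelled Ahr KO against 10.37 in the WT Clec4a4- array. Hspa8 read 11.55 against 11.32, Dnajb1 8.81 against 8.71, and Hspe1 8.16 against 8.15. Against the WT Clec4a4+ array, none of the 10 reached 2-fold in the array labelled Ahr KO (0.996% of genes) and none 1.5-fold (4.15%), 5 were higher and 5 lower, and the differences ran from -0.37 (Hspa1b) to 0.25 (Hspa5).

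HSP90 and its cochaperone p23 (Ptges3) belong to the complex that holds ligand-free AHR. The brightest Hsp90aa1 probe set had the same value, 8.70, in the array labelled Ahr KO and the WT Clec4a4- array. A dimmer Hsp90aa1 probe set read 6.45 in the array labelled Ahr KO, 6.52 in the WT Clec4a4- array and 6.98 in the WT Clec4a4+ array. Hsp90ab1 read 9.40 in the array labelled Ahr KO against 9.37 in the WT Clec4a4- array, and Ptges3 9.12 in both. Identical values occur in this table: 5.47% of genes had the same value in these 2 arrays. In the reporter comparison Ptges3 stood at 0.08 and did not pass (limma adjusted p = 0.978).

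Further probe sets of the heat shock genes were read on the single arrays as well. A second Hspa8 probe set read 10.99 in the WT Clec4a4+ array, 10.71 in the array labelled Ahr KO and 9.24 in the WT Clec4a4- array, which is 3.37-fold and 2.77-fold above the WT Clec4a4- array, while the brightest probe set differed by 0.09 and 0.23 on the log2 scale. Its accession is that of Snord14e in the RefSeq table, a small nucleolar RNA within the span of Hspa8 (chr9:40804748-40804838, GRCm38.p6), so this probe set may not read Hspa8 mRNA. The dim Hspa1a probe set read 6.16 in the WT Clec4a4+ array and 5.45 in the other two.

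Of the other lists on the single arrays, few genes reached 2-fold. None of the 21 HSF factors and HSF1-induced chaperones, the 18 measured cochaperones, the 12 mitochondrial genes or the 14 TRiC and prefoldin genes did so in any of the comparisons. Chordc1, an HSP90 cochaperone, read 5.22 in the WT Clec4a4+ array and 5.09 in the array labelled Ahr KO, against 4.36 in the WT Clec4a4- array, which is under the table median. The small heat shock protein Hspb1 read 4.39 in the WT Clec4a4+ array, under the median, against 5.18 in the WT Clec4a4- array. Of the endoplasmic reticulum genes Herpud1 read 8.81 in the WT Clec4a4+ array against 9.96 in the WT Clec4a4- array, the single gene of its list at 2-fold, and Eif2ak3, the stress sensor PERK, 7.84 against 6.93. Ddit3, a transcription factor of prolonged stress, read 7.53 in the array labelled Ahr KO against 8.14 in the WT Clec4a4- array.

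In the dissociation list, Myc read 6.02 in the WT Clec4a4+ array against 7.20 in the WT Clec4a4- array, the single gene of the list at 2-fold, and Nfkbia 10.90 against 11.85. In the array labelled Ahr KO against the WT Clec4a4- array, 2 genes were higher and 2 lower by 2-fold or more. Gadd45g, a growth arrest gene, read 7.57 against 5.76, and Atf3, a stress-induced transcription factor, 7.50 against 8.70. The other 2, Nr4a1 and Junb, differed by 1.10 and -1.03. The list's median was -0.12 in WT Clec4a4+ against WT Clec4a4-, and -0.23 in the array labelled Ahr KO against WT Clec4a4-.

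Epithelial markers had a mean of 5.52 in the WT Clec4a4+ array, 5.81 in the array labelled Ahr KO and 5.98 in the WT Clec4a4- array, and eosinophil markers of 7.99, 8.31 and 8.33 in the same order. The erythroid mean over 5 genes was 4.78 in the WT Clec4a4+ array, 4.91 in the array labelled Ahr KO and 3.73 in the WT Clec4a4- array, near or under the table median of 4.81. The heat shock mean was 9.80, 9.74 and 9.57 in the same order. The erythroid, dendritic cell, macrophage, mast cell and basophil, and T and NK cell means were likewise lowest in the WT Clec4a4- array. The remaining marker means were not, and with 3 arrays a match of this kind carries little weight. The mean of 8 dendritic cell markers was 5.58, 4.82 and 4.81, and that of 12 neutrophil markers 5.50, 5.97 and 5.82, with S100a8 at 3.27, 5.73 and 6.70. The part of these shifts in the heat shock values was not tested.

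Among the genes whose values ran most like the mean of the 9 heat shock genes over the 10 reporter arrays were Dtna (Pearson r = 0.96), Slc6a4 (0.95), Ssr2 (0.95) and Nlrp6 (0.94). Among those most like Hspa1a were Alpk1 (0.99), Syna (0.96), Lman1 (0.95) and Pdia4 (0.93). Dtna lay between 4.24 and 4.49 on all 10 arrays, under the table median of 5.36, so its likeness rests on a range of dim values. Among the heat shock genes themselves, Hspa1a correlated with Dnajb1 at 0.83, Hspd1 at 0.78 and Hspe1 at 0.71, but with Hsph1 at 0.09 and Hsp90aa1 at -0.13. These are descriptions over 10 arrays that share replicate numbers in pairs, chosen from all genes.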

How the data were processed

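RNA of eosinophils sorted from the mouse small intestine was measured on 13 arrays of 2 models, after amplification from 2 ng per the labels' protocols. The deposited values are log2 intensities, which the authors made with RMA, per the submitters' processing notes; the sources used here name no version of it. Each table was normalized separately, so differences were taken within a table. Array medians lay between 5.18 and 5.27 in the reporter table and between 4.73 and 4.75 in the other.

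Probe sets were named by Entrez identifier or, failing that, by accession or the file's symbol, through a RefSeq table of GRCm38.p6 (22106 and 24119 by Entrez identifier), and the probe set with the highest mean was kept per gene. The reporter arrays were fitted with limma 3.58.1 (R 4.3.3, trend and robust moderation, two-sided, Benjamini-Hochberg over all genes), tested on simulated data first. The deviations of same-numbered arrays from their group means correlated at 0.17 to 0.66 in all 5 pairs, so the numbers were taken to pair the samples, and the replicate number entered a second fit as a block. Single arrays were compared without a test, at 2-fold with the higher value at or above the table median. Alternatives were averaged probe sets, Entrez names only, no dim genes, plain moderation, median centring, the series matrix, other fold thresholds and arrays left out. Members and lists were chosen with earlier results of these data known. Named genes were the 10 members, up to 3 called genes per direction of each list or the 2 with the largest difference, the 2 with the largest difference of each list between single arrays, the 5 genes most like the members and Hspa1a, and Clec4a4 and Ahr; some of these genes are not reported here.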

Additional observations from a re-analysis of the deposited data

Results flagged for a closer look

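With 5 arrays a group, the gap of the highest or lowest array to the next, over the range of the group, was set against a critical value of 0.71 in 18 groups of 1 gene, of which chance marks about 1 in 20. Hspa1a was high in mCherry+ array 4 (9.49, gap 0.72 of the range), and Hspa5 was low in mCherry+ array 1 (10.62, 0.82) and Hspa8 in mCherry+ array 2 (10.89, 0.77). In mCherry- arrays, Hspd1 was low in array 1 (9.03, 0.77) and Hsp90aa1 high in array 3 (11.10, 0.77). Replicate 1 also had the lowest epithelial markers (8.39 in mCherry+ and 8.16 in mCherry-), and the part of that in the values of Hspa5 and Hspd1 was not tested.

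Hspd1 was lower in mCherry+ samples in 5 of 5 pairs (difference -0.29), whereas the WT Clec4a4+ array lay 0.62 above the WT Clec4a4- array. The difference between the sorts was not tested.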

How the results depend on the processing

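No heat shock gene passed under any of the 19 alternatives (lowest adjusted p = 0.217, with the replicate block). All genes called numbered 76, and moved to 377 with the replicate block, 122 with dim genes left out, 40 with both arrays of replicate 1 left out, 170 with the block and without replicate 1 (chosen after seeing the data), and 29 (without mCherry+ array 5) to 115 (without mCherry+ array 4) with 1 array left out. Fewer genes were tested with dim genes left out, and for the other settings the cause was not tested. The median of the heat shock genes ranged from -0.26 to -0.042 over the fits with 1 array left out, against -0.10, and its lowest value came without mCherry- array 1 (-0.26), followed by mCherry+ array 4 (-0.21). With 1 array left out, uncalled differences changed sign in 14 cases, and the ranges were -0.42 to 0.057 for Hspa1a, -0.00065 to 0.14 for Hspa8, -0.54 to 0.068 for Hsph1, -0.081 to 0.071 for Hsp90aa1 and -0.27 to 0.12 for Dnajb1. Between the WT arrays 3 heat shock genes counted at 1.5-fold in place of 0 at 2-fold. The replicate block changed no heat shock call. The number of arrays limits all of this.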
